A study of Mus musculus with 4 samples.

Results

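Dendritic cells that carry no Cd209a message were followed in single-cell RNA libraries of inguinal fat. Cd209a encodes a C-type lectin found on many type 2 conventional dendritic cells. A cell belonged to the set if it passed the cell filter (at least 500 genes and under 15% mitochondrial UMIs) and met 6 conditions on its unique molecular identifiers (UMIs, each standing for 1 captured transcript). The conditions were Flt3, Xcr1, Clec9a and Fscn1 together at 2 or more UMIs, Cd74 at 10 or more, Ptprc at 1 or more, and no UMI of Cd209a. No UMI of Cd3e, Cd3d, Cd3g or Cd79a was allowed, and C1qa, C1qb and C1qc together had to stay under 5 per 10000 UMIs of the cell. The rule found 112 of 15721 kept cells, 11 and 25 in cold replicates 1 and 2, and 42 and 34 in room-temperature replicates 1 and 2. The members were chosen by measured values of these same libraries, so what sets them apart from other cells is described here without a test.

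The study used C57BL/6 mice that were 8 weeks old and held for 24 h either at 4 °C or at room temperature, with 2 libraries each. No transgene or gene deletion is named in the labels. The tissue was the number 4 inguinal fat depot, and the cells were its stromal vascular fraction, what remains of the tissue once the fat-filled adipocytes are lost in a collagenase digest. Libraries came from the 10x Genomics 3′ v3 kit. The labels do not say that the libraries came from separate animals, so each p-value measures only the spread between libraries, which may be technical.

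Dendritic cells take up antigen, show it to T cells on MHC molecules and carry it through lymph vessels to lymph nodes. Type 1 conventional dendritic cells (cDC1) depend on the transcription factors IRF8 and BATF3. They bear XCR1, the receptor for a chemokine of killer lymphocytes, and CLEC9A, a receptor for filaments exposed by dead cells, and they pass antigen from dead cells onto MHC class I. Dendritic cells of any type that mature and leave a tissue switch on Ccr7, the receptor that guides them to the node, and Fscn1, an actin bundler of their long processes. FLT3 is the growth factor receptor on which dendritic cells depend.

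The libraries held 35198164 to 55160902 UMIs, and the members' median depth was 11705 and 9922 UMIs in the cold libraries and 8912 and 9442.5 UMIs in the others. Pairs of libraries shared 1 to 8 cell barcodes. Levels are given in CPM, the UMIs of a gene per 1000000 UMIs summed over the cells of a set in a library. The sums over members rest on 138925 to 406887 UMIs per library. In sums over cells, fewer cells expressing a gene and less RNA per cell cannot be told apart.

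The members divided into those with more Xcr1 and Clec9a than Fscn1 and Ccr7 UMIs (78 Xcr1/Clec9a cells), those with the reverse (20 Fscn1/Ccr7 cells) and 14 cells with equal sums. The Xcr1/Clec9a cells numbered 8, 19, 31 and 20 in cold replicates 1 and 2 and room-temperature replicates 1 and 2. The Fscn1/Ccr7 cells numbered 0, 4, 6 and 10 in the same order, so cold replicate 1 held none. The cells with equal sums numbered 3, 2, 5 and 4.

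**Figure D1:**
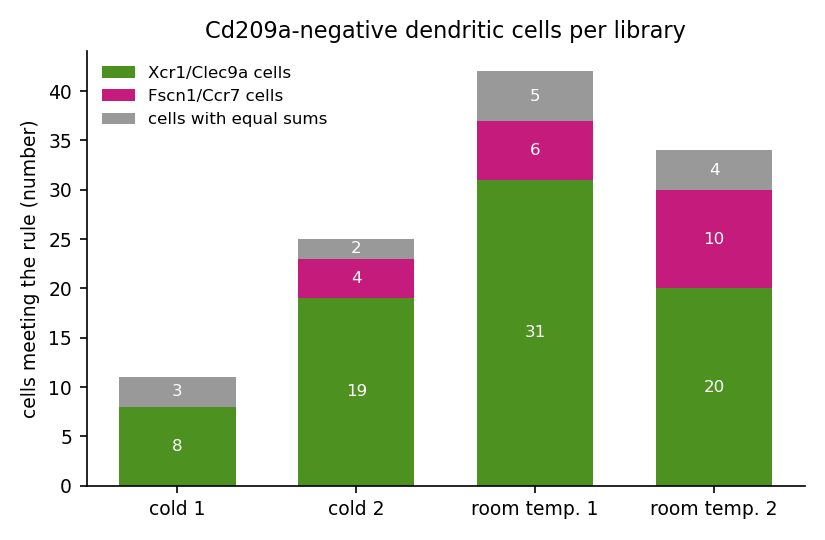
The bars show how many cells met the rule in each library, split by the larger of their Xcr1 plus Clec9a or Fscn1 plus Ccr7 UMIs. Xcr1/Clec9a cells are the larger part in each library, from 8 to 31 cells, and Fscn1/Ccr7 cells range from 0 to 10.

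The genes with the largest ratio of members to all other kept cells are given as a description. Irf8, the master factor of cDC1, stood at 1749, 1178, 1005 and 859 CPM in members of cold replicates 1 and 2 and room-temperature replicates 1 and 2, and at 41.9 to 89.9 CPM in the rest. H2-Ab1, an MHC class II beta chain, stood at 6838 to 8471 CPM in members and 610 to 1685 CPM in the rest, beside a rule that asks for Cd74, the MHC class II chaperone. Tnni2, a troponin subunit, stood at 93.6 to 184 CPM in members and 1.99 to 4.50 CPM in the rest. Others among the leading genes were Wdfy4, Plbd1, Naaa, Cst3, Sept3, Mpeg1, Napsa, Rnase6, Pkib, Ppt1, P2ry14, Jaml and Havcr2.

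The Xcr1/Clec9a cells carried the cDC1 programme by markers the rule did not use. The 13 such cDC1 markers, among them Irf8, Batf3, Cadm1, Naaa and Tlr3, summed to 4906 and 4044 CPM in cold and 4859 and 5114 CPM at room temperature. Each of the 13 had a UMI in these cells. In the Fscn1/Ccr7 cells the same markers summed to 641 to 688 CPM over the 3 libraries that held such cells, with Tlr3, Snx22 and Gcsam at 0. In Cd209a dendritic cells (2 or more Cd209a UMIs, 310 cells) they summed to 783 to 881 CPM. Not each marker set the subsets apart. Batf3 had a UMI in 55 of 78 Xcr1/Clec9a cells and in 12 of 20 Fscn1/Ccr7 cells. Its median was 1.13 and 0.98 UMIs per 10000 in these subsets.

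Named by the size of their ratio, the genes that stood highest in Xcr1/Clec9a cells over Fscn1/Ccr7 cells were led by Wdfy4, which cDC1 need to cross-present antigen from cells. Wdfy4 stood at 467, 361, 581 and 543 CPM in Xcr1/Clec9a cells and at 0 to 8.90 CPM in Fscn1/Ccr7 cells. Ppt1, a lysosomal thioesterase, stood at 535 to 793 CPM in Xcr1/Clec9a cells against 0 to 26.7 CPM. Naaa, which breaks down N-acylethanolamines, stood at 771 to 1315 CPM against 17.8 to 172 CPM. Other genes in this group were Ckb, Sept3, Gcnt2, P2ry14, Cd24a, Rab7b, Plbd1 and Mycl. Pclaf, a DNA replication factor, stood at 70.8 to 382 CPM in Xcr1/Clec9a cells with no UMI in Fscn1/Ccr7 cells. No library of 1 subset overlapped a library of the other for any of these genes. They were picked by their ratio in these same libraries, so the lack of overlap follows largely from that choice. Tlr3, the sensor of double-stranded RNA, stood at 61.3 to 121 CPM in Xcr1/Clec9a cells, and Gcsam at 55.5 to 94.4 CPM, while Cd209a dendritic cells held 0 to 3.51 CPM of Tlr3 and none of Gcsam.

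Summed over the Fscn1/Ccr7 cells, markers of mature, migrating dendritic cells were high. The 20 migratory markers that the rule did not use summed to 9670 CPM in cold replicate 2 and to 13070 and 15390 CPM in the room-temperature libraries. In Xcr1/Clec9a cells they summed to 538 to 609 CPM and in Cd209a dendritic cells to 1054 to 1609 CPM. Ccl5, a chemokine that draws T cells, stood at 1623, 6554 and 7964 CPM in the Fscn1/Ccr7 cells and at 0 to 14.2 CPM in Xcr1/Clec9a cells. Ccl22, a ligand of CCR4 on T cells, stood at 104, 1376 and 2225 CPM against 0 to 9.44 CPM. Il4i1, a secreted amino acid oxidase, stood at 484, 287 and 810 CPM against 0 to 17.3 CPM. Not each of these cells carried both genes of their name. Of the 4 in cold replicate 2, a cell of 10293 UMIs had 3 Fscn1 and 0 Ccr7 UMIs beside 33 of Ly6c2 and 403 of Lyz2, genes of monocytes, and a cell of 5699 UMIs had 1 Ccr7 and 0 Fscn1 UMIs. The 5 monocyte markers summed to 5077 CPM in the Fscn1/Ccr7 cells of that library and to 936 and 712 CPM in those at room temperature, against 878 to 1030 CPM in Xcr1/Clec9a cells.

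Relb, the NF-kB subunit of mature dendritic cells, stood at 414, 573 and 445 CPM in Fscn1/Ccr7 cells and at 8.64 to 47.2 CPM in Xcr1/Clec9a cells. Cd40, the receptor through which helper T cells license dendritic cells, stood at 173, 268 and 472 CPM against 0 to 24.8 CPM. Further genes high in Fscn1/Ccr7 cells were Apol7c, Fabp5, H2-M2, Socs2, Cacnb3, Tmem123, Zmynd15, Arl5c and Samsn1. Cxcl2 and Retnla were also among the largest ratios, at 0, 1892 and 275.8 CPM and at 69.1, 4796 and 916.5 CPM. A cell of 19324 UMIs in room-temperature replicate 1 held 98 Cxcl2 and 246 Retnla UMIs. A cell of 30453 UMIs in room-temperature replicate 2 held 100 Retnla UMIs. Ccl17, the partner chemokine of Ccl22, was uneven at 69.1, 95.6 and 952 CPM. Of its 108 UMIs in members of room-temperature replicate 2, 78 lay in 1 cell. Aldh1a2, an enzyme that makes retinoic acid, was uneven as well at 0, 688 and 89.0 CPM.

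H2-Ab1 lay lower in the Fscn1/Ccr7 cells, at 4628, 1796 and 2403 CPM against 6987 to 12060 CPM in Xcr1/Clec9a cells. The 13 genes of an MHC class II presentation list summed to 22590, 9230 and 10540 CPM there and to 23060 to 35160 CPM in Xcr1/Clec9a cells. In cold replicate 2 the subsets were thus close, at 22590 and 23060 CPM. Within the list, Lgmn had a UMI in 75% of Fscn1/Ccr7 and 14.1% of Xcr1/Clec9a cells, and H2-Eb2 in 35% and 1.28%. Cst3, a protease inhibitor abundant in cDC1, stood at 2107 to 7128 CPM in the Fscn1/Ccr7 cells and at 13150 to 22210 CPM in Xcr1/Clec9a cells. Cd86, a ligand of CD28, was not higher in these cells, with 34.5, 19.1 and 62.3 CPM in Fscn1/Ccr7 cells and 92.0 to 231 CPM in Xcr1/Clec9a cells. Id2, a transcription factor of cDC1, was at 207, 1567 and 917 CPM in Fscn1/Ccr7 cells and 441 to 684 CPM in Xcr1/Clec9a cells, so the ranges overlapped. Zeb2, a factor of type 2 and plasmacytoid dendritic cells, stood at 160 to 622 CPM in Fscn1/Ccr7 cells, 425 to 605 CPM in Cd209a dendritic cells and 8.64 to 19.6 CPM in Xcr1/Clec9a cells.

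**Figure D2:**
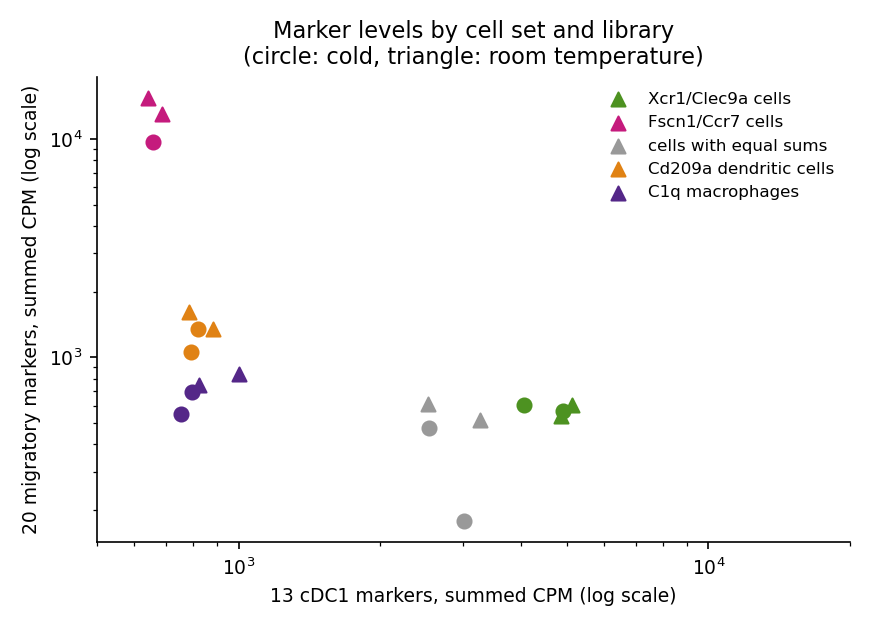
Each point is 1 library of 1 cell set, with the summed CPM of 13 cDC1 markers on the horizontal log axis and that of 20 migratory markers on the vertical log axis. Circles are cold and triangles room-temperature libraries. Fscn1/Ccr7 cells lie at 9670 to 15390 CPM of migratory markers, and Xcr1/Clec9a cells at 4044 to 5114 CPM of cDC1 markers.

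The label of cDC1 and migratory cells held for the summed markers of these subsets but not for each member. Siglech, a marker of plasmacytoid dendritic cells, had 5 or more UMIs in 2, 3, 1 and 5 members of the 4 libraries, 11 cells in all, and no UMI in the other members. Of these 11 cells, 6 had equal sums, 4 were Xcr1/Clec9a cells and 1 was an Fscn1/Ccr7 cell. The latter, of 7636 UMIs in room-temperature replicate 2, had 0 Fscn1, 1 Ccr7 and 20 Siglech UMIs. Another Fscn1/Ccr7 cell of that library, of 30453 UMIs, had 34 Fscn1 and 0 Ccr7 UMIs. In room-temperature replicate 1, an Fscn1/Ccr7 cell of 19324 UMIs had 2 Fscn1 and 0 Ccr7 UMIs. The counts of Fscn1/Ccr7 cells include these cells and those of cold replicate 2 described above. The 6 plasmacytoid markers summed to 7298, 2963 and 7810 CPM in the equal-sum cells of cold replicates 1 and 2 and room-temperature replicate 2, and to 104 CPM in those of room-temperature replicate 1. The 13 cDC1 markers summed to 2548 and 3023 CPM in the equal-sum cells in cold and to 3263 and 2535 CPM at room temperature. Of these 14 cells, 6 had a UMI of Siglech, 6 of Naaa and 8 of Wdfy4. The equal-sum cells were not given a name. Type 2 markers were low in members, where 10 of them summed to 382 to 535 CPM against 2529 to 3244 CPM in Cd209a dendritic cells. The 8 macrophage markers summed to 64.8 to 167 CPM in members and to 5354 to 6910 CPM in C1q macrophages (20 or more C1q UMIs per 10000, 1824 cells).

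Near the threshold, 5, 9, 6 and 11 further cells of the 4 libraries met every other condition with a marker sum of 1 UMI, and 4, 3, 12 and 3 members had the minimum of 2. Pooled over libraries, the cells at 1 UMI held 1264 CPM of Irf8, 223 CPM of Naaa and 3117 CPM of Cst3. The members at 2 UMIs held 1006 CPM of Irf8, 760 CPM of Naaa and 13430 CPM of Cst3. A single UMI of Cd209a kept out 1, 1, 1 and 9 cells that otherwise met the rule.

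Markers of structural cells were carried by a few members. The 10 cells with 5 or more UMIs from the epithelial, fibroblast, endothelial, pericyte, Schwann, neutrophil or mast cell marker lists numbered 1, 3, 3 and 3 in the 4 libraries. An Xcr1/Clec9a cell of cold replicate 2 held 83176 of the 328477 UMIs of members in that library, the highest count among members. It carried 1218 UMIs of epithelial markers. An Xcr1/Clec9a cell of cold replicate 1 held 28317 UMIs with 432 of Acta2, the smooth muscle actin, and 108 of epithelial markers. In room-temperature replicate 1, an Fscn1/Ccr7 cell of 19324 UMIs held 164 fibroblast marker UMIs and an Xcr1/Clec9a cell of 18742 UMIs held 335. In room-temperature replicate 2, an Fscn1/Ccr7 cell of 30453 UMIs held 78 endothelial marker UMIs. The rest of the 10 held only 5 to 7 UMIs of these lists. Among them were equal-sum cells of 6685, 7026 and 7892 UMIs with 18, 21 and 19 Siglech UMIs. An Fscn1/Ccr7 cell of 7334 UMIs with 15 Fscn1 and 22 Ccr7 UMIs was another. Fits without the cells bearing other-type markers leave these out too.

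Markers of structural cells differed between libraries. The 6 epithelial markers summed to 893 and 3805 CPM over members in cold and to 51.6 and 44.6 CPM at room temperature. The 5 fibroblast markers summed to 230 and 21.3 CPM in cold and 1364 and 58.6 CPM at room temperature. The 3 pericyte markers summed to 3124 and 3.04 CPM in cold and 7.37 and 30.7 CPM at room temperature. Many results of the comparison with cold are therefore given with and without the cells bearing other-type markers, a choice made after the data were seen. The descriptions of the subsets and the shares of cells are given with them only. So are the interactions of single genes, apart from the 4 that passed against Cd209a dendritic cells. The Fscn1/Ccr7 cells held 52331 UMIs in room-temperature replicate 1, of which 19324 lay in such a cell. In replicate 2 of that group it was 30453 of 112381. Doublet scoring against simulated doublets placed 1 Xcr1/Clec9a and 2 Fscn1/Ccr7 cells among the cells with the highest scores. All of these members belonged to room-temperature libraries. The epithelial-marker-bearing cells of 83176 and 28317 UMIs, both from cold libraries, were not marked as doublets. Doublets were kept in the main values, and leaving them out was an alternative.

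Dividing cells were found among the members. Xcr1/Clec9a cells with 2 or more UMIs of Mki67 and Top2a, genes of dividing cells, were 2 of 8 and 2 of 19 in cold and 11 of 31 and 3 of 20 at room temperature (25%, 10.5%, 35.5% and 15%). The cold and room-temperature values overlapped. Of the Fscn1/Ccr7 cells 2 of 10 (20%) in room-temperature replicate 2 met this, and of the equal-sum cells 2 of 5 (40%) in room-temperature replicate 1, with 0 in the other libraries of either. Of these Fscn1/Ccr7 cells, that of 30453 UMIs (7 Mki67 and 5 Top2a UMIs) had a high doublet score and 78 endothelial marker UMIs. The other, of 10707 UMIs, had 3 Mki67 and 1 Top2a UMIs. In C1q macrophages, which served as a background, the share was 0.893% to 2.53%, at median depths of 6323 to 9271 UMIs against 8996 to 12788 UMIs in the Xcr1/Clec9a cells. Cd209a dendritic cells lay between, at 5.15% to 12.6%.

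Whether cold changed the number of these cells was asked next. Members made up 0.271% and 0.821% of kept cells in cold and 0.768% and 1.08% in the room-temperature libraries, with exact binomial 95% intervals of 0.135 to 0.484, 0.532 to 1.21, 0.554 to 1.04 and 0.750 to 1.51. The group values, 0.546 ± 0.389% and 0.925 ± 0.222% (SD, n = 2 each), overlapped (two-sided exact permutation p = 0.667, where 2 against 2 cannot go below 0.333). Of Ptprc-positive cells, those with the leukocyte antigen CD45, members made up 0.572% and 1.46% in cold and 1.47% and 1.58% at room temperature (exact permutation p = 0.333, the smallest the design allows). That order rested on 1.463% in cold replicate 2 against 1.465% in room-temperature replicate 1. Once doublets were left out, which removed members from room-temperature libraries only, these libraries stood at 1.516% and 1.493%, so the groups overlapped (exact permutation p = 0.667). A marker sum of at least 3, an allowed Cd209a UMI and thinning to 3000 UMIs each gave 0.667 in this test too. The stricter cell filter (1000 genes, 10% mitochondrial) kept it at 0.333. Without cold replicate 1 the difference in the share of Ptprc-positive cells was -0.062 percentage points, against -0.507 with all libraries and -0.952 without cold replicate 2. Intervals cover counting error only.

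Within members, Xcr1/Clec9a cells made up 72.7% and 76.0% in cold and 73.8% and 58.8% at room temperature (exact permutation p = 0.667). Fscn1/Ccr7 cells made up 0% and 16.0% in cold and 14.3% and 29.4% in the room-temperature libraries (exact permutation p = 0.667). The 0 of 11 cells in cold replicate 1 has an exact upper limit of 28.5%. With 2 libraries a group neither test could pass 0.05, whatever the cell numbers. The difference in the Xcr1/Clec9a share, 8.05 percentage points, rested on single libraries. It came to 15.5 when room-temperature replicate 1 was dropped and to 0.554 when replicate 2 of that group was. The difference in the Fscn1/Ccr7 share was -5.85 without cold replicate 1, -21.9 without cold replicate 2, and -21.4 and -6.29 when the room-temperature replicates 1 and 2 were dropped in turn. With each cell thinned to 3000 UMIs before the rule, the difference in the Fscn1/Ccr7 share was 38.2 percentage points instead of -13.8, on 1 member in cold replicate 1, so no order is read from it.

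Gene expression in members was then compared between cold and room temperature on the UMIs summed per library, with the edgeR quasi-likelihood test and Benjamini-Hochberg adjustment. Of 4205 genes tested, 9 (0.214%) passed an adjusted p of 0.05: 8 were higher in cold (0.19%) and 1 was lower (0.0238%). Over all 4205 genes, 378 had an unadjusted p under 0.05 and DESeq2 called 33. Counts of these kinds in the gene lists below are to be read beside them. The genes that edgeR called higher in cold included the inducible HSP70 pair Hspa1a and Hspa1b, the stress-induced transcription factor gene Atf3, and Neat1, the RNA scaffold of nuclear paraspeckles. The others higher in cold were Lcn2, Fxyd3, Gata3 and Socs3, and the 1 lower was Retnla. UMIs of these 5 genes lay mainly in the cells with other-type markers. Leaving out single libraries moved the count. It came to 72 when cold replicate 1 was dropped, 14 when cold replicate 2 was, and 190 when room-temperature replicate 1 was. Dropping room-temperature replicate 2 left 0 calls, with 228 genes at an unadjusted p under 0.05 in the edgeR test.

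Hspa1a (ENSMUSG00000091971, chr17:34969190-34972156 on GRCm38) encodes an inducible HSP70 chaperone that refolds proteins after heat and other stress. It stood at 2397 and 2332 CPM in cold and at 322 and 181 CPM at room temperature, so the cold libraries lay close together and well above the others. The log2 fold change was 3.29 (SE 0.28, edgeR quasi-likelihood adjusted p = 0.0044). It held at 3.40 without the cells bearing other-type markers (adjusted p = 0.0036). Across the alternatives the log2 fold change ran from 2.96 to 3.92. The call was lost without room-temperature replicate 2 (2.96, adjusted p = 0.189) and in Xcr1/Clec9a cells alone (3.72, adjusted p = 0.121), and was made in those without the cells bearing other-type markers (3.92, adjusted p = 0.010). The median member held 20.3 and 11.8 Hspa1a UMIs per 10000 in cold and 0.30 and 0 at room temperature.

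Hspa1b (ENSMUSG00000090877, chr17:34956436-34959238) is a near-identical copy of Hspa1a, so how transcripts were split between the pair is uncertain. It stood at 648 and 670 CPM in cold and 88.5 and 27.9 CPM at room temperature (log2 change 3.54, SE 0.47, edgeR quasi-likelihood adjusted p = 0.042). Without the cells bearing other-type markers its log2 fold change was 3.72 and the adjusted p was 0.052. Without cold replicate 2 the adjusted p was 0.155, and without room-temperature replicate 2 it was 0.333.

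The promoters of this pair are shown because both copies were called and their windows can be compared. They are the 250 bases before the gene start from RefSeq on GRCm38.p6, minus strand, at chr17:34972157-34972406 for Hspa1a and chr17:34959239-34959488 for Hspa1b, and both were matched by symbol. The windows were equal at 247 of 250 positions. Capitals mark the single match to GAANNTTC, a pair of inverted units of the heat shock element, which starts 104 bases before the gene start in both.
Hspa1a: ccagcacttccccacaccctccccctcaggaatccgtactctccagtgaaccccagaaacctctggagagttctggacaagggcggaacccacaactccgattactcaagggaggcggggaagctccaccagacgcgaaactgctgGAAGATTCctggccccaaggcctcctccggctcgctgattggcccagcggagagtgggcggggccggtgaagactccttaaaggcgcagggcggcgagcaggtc
Hspa1b: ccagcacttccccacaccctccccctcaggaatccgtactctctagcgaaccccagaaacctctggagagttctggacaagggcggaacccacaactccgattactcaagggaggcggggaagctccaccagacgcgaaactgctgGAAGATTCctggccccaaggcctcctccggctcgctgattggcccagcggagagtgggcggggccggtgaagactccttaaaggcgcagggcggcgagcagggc
The full element of 3 units, GAANNTTCNNGAA, searched on both strands, had no match in either window and occurred in 153 of 32851 promoter windows (0.466%). The shorter motif, which is its own reverse complement and lies within the longer one, was tried after that search and occurred in 2199 windows (6.69%). A match is a stretch of letters and was not tied to binding here.

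Other heat shock chaperones had higher values in cold without passing the test. Of the 13 genes of the list, 12 were tested, 2 passed (Hspa1a and Hspa1b, both higher), and 9 had both cold libraries above both room-temperature libraries, a pattern held by 16.3% of all tested genes. DESeq2 called 4 of the 12, the pair with Dnajb1 and Hsp90aa1. The median log2 fold change of the list was 1.11, against -0.0085 over all tested genes, and 0.95 without the cells bearing other-type markers. Dnajb1, the HSP40 partner that feeds substrates to HSP70, stood at 338 and 454 CPM in cold and 106 and 86.4 CPM at room temperature (log2 change 2.11, SE 0.32, edgeR adjusted p = 0.057). Hsph1, an HSP110 that recharges HSP70, stood at 115 and 146 CPM in cold and 31.95 and 36.3 CPM at room temperature (log2 change 2.02, edgeR adjusted p = 0.095). Hspa5, the HSP70 of the endoplasmic reticulum, lay at 540 and 448 CPM in cold and 700 and 544 CPM at room temperature. Genes of the lists that did not pass were picked for naming after their values were seen.

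Immediate early genes, switched on within minutes of a stimulus and also by the digestion of a tissue, were the second list on the higher side. Of 19 genes, 18 were tested, 1 passed (Atf3, where 0.214% of all genes passed), 13 had both cold libraries above both others (16.3% of all genes), and the median log2 fold change was 0.94. Without the cells bearing other-type markers 3 of 17 passed (0.15% of all genes in that fit), 12 lay higher without overlap (15.2% of all genes) and the median was 1.11. Atf3 (ENSMUSG00000026628, chr1:191170296-191218039) stood at 662 and 1516 CPM in cold and 162 and 117 CPM at room temperature (log2 change 3.04, SE 0.42, edgeR quasi-likelihood adjusted p = 0.042). In cold replicate 2, 204 of its 498 UMIs lay in the cell of 83176 UMIs. Without the cells bearing other-type markers it stood at 714 and 1288 CPM in cold and 149 and 128 CPM at room temperature (log2 change 2.94, edgeR adjusted p = 0.029). It lost the call without cold replicate 2 (2.26, adjusted p = 0.120) and without room-temperature replicate 2 (2.84, adjusted p = 0.666).

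Fos and Jun encode the subunits of AP-1. Fos stood at 1929 and 3306 CPM in cold and 686 and 237 CPM at room temperature, with an adjusted p of 0.101 (edgeR, log2 fold change 2.58). Jun stood at 1044 and 1863 CPM in cold and 214 and 58.6 CPM at room temperature, with an adjusted p of 0.063 (edgeR, log2 fold change 3.48). The cold libraries lay above the others for both genes, and both passed without the cells bearing other-type markers, at log2 fold changes of 2.60 and 4.06 with the same edgeR adjusted p of 0.029, and DESeq2 called both in the full set. Nr4a2, a nuclear receptor of the same list, went the other way at 208.7 and 231 CPM in cold and 364 and 435 CPM at room temperature without passing (edgeR adjusted p = 0.483).

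Neat1 (ENSMUSG00000092274, chr19:5824708-5845478) had the smallest SE of the called genes. It stood at 1476 and 1306 CPM in cold and 543 and 491 CPM at room temperature (log2 change 1.48, SE 0.20, edgeR quasi-likelihood adjusted p = 0.042). It had a UMI in 10 of 11 and 25 of 25 members in cold and in 38 of 42 and 29 of 34 at room temperature, most members of each library. Median members held 15.5 and 10.2 UMIs per 10000 in cold, against 3.47 and 5.29 at room temperature. The log2 fold change was 1.68 without the cells bearing other-type markers and 1.67 in Xcr1/Clec9a cells alone, both past the threshold. Leaving out cold replicate 2 (1.54, adjusted p = 0.124) or room-temperature replicate 2 (1.44, adjusted p = 0.557) ended the call, as did a marker sum of at least 3 UMIs (1.38, adjusted p = 0.089).

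**Figure D3:**
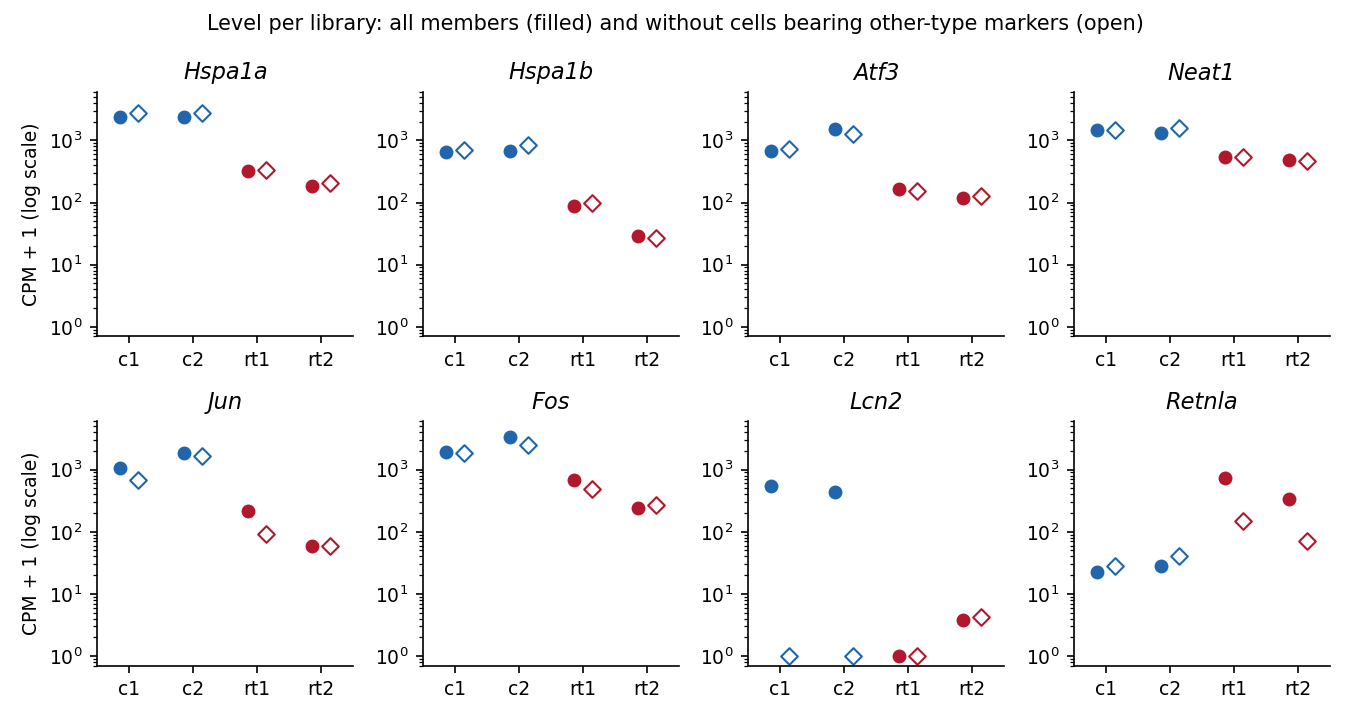
Each panel gives the CPM plus 1 of a gene on a log axis in cold replicates 1 and 2 (c1 and c2, blue) and room-temperature replicates 1 and 2 (rt1 and rt2, red). Filled circles are all members and open diamonds the members without cells bearing other-type markers. Hspa1a keeps its separation in both, while Lcn2 in cold falls from 547 and 441 CPM to 0.

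The remaining 5 called genes followed single cells. Lcn2, an iron-sequestering protein of epithelium and neutrophils, had 76 UMIs in 1 cell of cold replicate 1, 145 in 1 cell of cold replicate 2, and 0 and 1 UMIs in the room-temperature libraries (edgeR adjusted p = 0.0027). Both cells bear the epithelial markers described above. Fxyd3, a sodium pump regulator of epithelium, had 17 and 96 UMIs in those same cells and 0 and 3 UMIs at room temperature (edgeR adjusted p = 0.042). Of the 12 and 56 UMIs of Gata3, a factor of mammary luminal and lymphoid cells, 10 and 56 lay there (edgeR adjusted p = 0.030). Of the 37 and 119 UMIs of Socs3, a brake on cytokine receptors, 33 and 116 lay there (edgeR adjusted p = 0.027). None of these 4 passed the filter on low counts once those cells were left out.

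Retnla, which encodes RELM-alpha, a secreted product of adipose macrophages, was the gene lower in cold, at 21.6 and 27.4 CPM against 737 and 340 CPM (log2 change -4.32, SE 0.50, edgeR quasi-likelihood adjusted p = 0.027). Of its 300 and 122 UMIs at room temperature, 246 and 100 lay in 1 Fscn1/Ccr7 cell each. Leaving out the cells with other-type markers, it stood at 27.1 and 39.4 CPM in cold and 149 and 70.2 CPM at room temperature, still without overlap (log2 change -1.56, edgeR adjusted p = 0.575). C1q macrophages held 14430 to 31990 CPM of Retnla. With doublets left out the log2 fold change was -1.99 (adjusted p = 0.153).

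In Xcr1/Clec9a cells alone, a fit added after the data were seen because cold replicate 1 held 8 such cells, 12 of 3138 genes (0.382%) passed, all higher in cold. Atf3, Neat1, Txnip and Zfp36 were among them. Txnip, a thioredoxin-binding protein, stood at 363 and 421 CPM in cold and 42.4 and 47.2 CPM at room temperature (log2 change 3.24, SE 0.32, edgeR quasi-likelihood adjusted p = 0.012). Of its 51 and 137 UMIs over all members in cold, 32 and 98 lay in 1 cell of each library, and without the cells bearing other-type markers its log2 change over members was 1.53 (edgeR adjusted p = 0.540). Zfp36, which speeds the decay of cytokine messages, stood at 1106 and 1146 CPM in cold and 356 and 425 CPM at room temperature (log2 change 1.64, SE 0.23, edgeR adjusted p = 0.024), while over all members its log2 change was 0.92 (edgeR adjusted p = 0.176). Lcn2, Fxyd3, Gata3, Socs3 and Hspb1 passed as well, and the cell of 83176 UMIs in cold replicate 2 and that of 28317 in cold replicate 1 belong to this subset, which held 115767 UMIs in the latter library. The other called genes were Igfbp5, Rgs1 and Tcim. With the other-type cells left out of this subset as well, 12 of 2579 genes passed (0.465%), all higher in cold. Of the first 12, Atf3, Neat1, Rgs1 and Zfp36 (1.62, edgeR adjusted p = 0.013) passed again, and Txnip did not (1.59, edgeR adjusted p = 0.300), while the other 7 had too few UMIs for the test. The 8 others were Fos, Jun, Hspa1a, Hspa1b, Dnajb1, Hsph1, Fkbp5 and Zfp36l2. Rgs1, a brake on chemokine receptor signals, stood there at 537 and 707 CPM in cold and 48.7 and 9.44 CPM at room temperature (log2 change 4.42, SE 0.47, edgeR adjusted p = 0.00075). Dnajb1 and Hsph1 of the chaperone list had log2 changes of 2.27 and 2.73 there (edgeR adjusted p = 0.033 and 0.045). The Fscn1/Ccr7 cells were not tested, since cold replicate 1 held none.

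No gene of the migratory programme was called. Of 30 genes, 22 were tested and 0 passed the edgeR test, with 15 at an unadjusted p under 0.05 and 2 called by DESeq2 (Ccl22 and Serpinb6b). In the same list 19 had both cold libraries below both room-temperature libraries, a pattern held by 24.4% of all tested genes, and the median log2 fold change was -1.47. Without the cells bearing other-type markers 11 of 19 tested genes had that pattern (21.9% of all genes in that fit). Ccl22 stood at 0 and 9.13 CPM in cold and 177 and 703 CPM at room temperature (edgeR adjusted p = 0.069). Ccl17 had 0 and 3 UMIs in cold and 6 and 108 at room temperature, too few for the test. Serpinb6b, a serine protease inhibitor, stood at 21.6 and 42.6 CPM in cold and 125 and 273 CPM at room temperature (edgeR adjusted p = 0.176). Tmem123 stood at 79.2 and 241 CPM in cold and 420 and 784 CPM at room temperature (edgeR adjusted p = 0.347). The number of Fscn1/Ccr7 cells, 0 and 4 in cold and 6 and 10 at room temperature, moved with this list, and its part in the result was not tested. In Xcr1/Clec9a cells alone 7 genes of the list were tested, with a median log2 fold change of -0.47 and 3 on the lower side without overlap (25% of all genes in that fit).

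NF-kB target genes gave no call either. Of 15 genes, 13 were tested and 0 passed the edgeR test, with 9 at an unadjusted p under 0.05 and 2 called by DESeq2 (Nfkbiz and Bcl2a1b). In the same list 12 had both cold libraries below both others (24.4% of all tested genes), and the median log2 fold change was -1.22. Without the cells bearing other-type markers it was 8 of 11 (21.9% of all genes in that fit), with a median of -1.13. The list summed to 4283, 8809 and 5117 CPM in Fscn1/Ccr7 cells and to 950 to 2619 CPM in Xcr1/Clec9a cells, so the number of Fscn1/Ccr7 cells moved with it too, and its part was not tested. Nfkbia, the inhibitor that NF-kB itself induces, stood at 173 and 323 CPM in cold and 565 and 692 CPM at room temperature (edgeR adjusted p = 0.309). Nfkbiz, a nuclear co-factor, stood at 21.6 and 36.5 CPM in cold and 155 and 173 CPM at room temperature (edgeR adjusted p = 0.075). Bcl2a1b, a survival factor with near-identical copies, stood at 14.4 and 88.3 CPM in cold and 258 and 449 CPM at room temperature (edgeR adjusted p = 0.206). In Xcr1/Clec9a cells alone the list had a median of -0.79 and 7 of 10 tested genes on the lower side without overlap (25% of all genes in that fit). There edgeR called 0 of the 10, with 4 at an unadjusted p under 0.05 (310 of 3138 genes in that fit). Nfkbia stood there at 164 and 262 CPM in cold and 317 and 552 CPM at room temperature (edgeR adjusted p = 0.502).

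More cytokine and chemokine genes lay lower than higher in cold, without a call by edgeR. Of 25 genes, 14 were tested and 0 passed the edgeR test, with 7 at an unadjusted p under 0.05 and 4 called by DESeq2 (Ccl22, Ccl4, Cxcl2 and Il1b). In the list 9 lay lower in both cold libraries (24.4% of all genes) and 1 lay higher (16.3%), and the median log2 fold change was -1.22. With the cells bearing other-type markers left out 6 of 13 lay lower (21.9% of all genes in that fit) and 2 higher (15.2%), and the median was -0.87. Il1b, the pyrogenic cytokine, stood at 446 and 210 CPM in cold and 826 and 1082 CPM at room temperature (edgeR adjusted p = 0.206). Ccl4, a chemokine, was the gene on the higher side, at 554 and 667 CPM in cold and 214 and 78.1 CPM at room temperature (log2 change 2.12, SE 0.44, edgeR adjusted p = 0.167). Of its UMIs in cold, 60 of 77 and 145 of 219 lay in 1 cell of each library. Cxcl9 and Cxcl10, chemokines that interferon-gamma induces, rested on room-temperature replicate 2, where they stood at 466 and 558 CPM against 0 to 81.1 CPM in the other libraries. There 152 of 167 Cxcl9 UMIs and 185 of 200 Cxcl10 UMIs lay in 1 cell.

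No gene of antigen presentation was called. Of 19 genes of the MHC class I list 0 passed the edgeR test, with 2 at an unadjusted p under 0.05 and 0 called by DESeq2. Of them 9 lay lower in both cold libraries (24.4% of all genes) and 0 higher (16.3%), and the median log2 fold change was -0.32. Without the cells bearing other-type markers 7 of 17 lay lower (21.9% of all genes in that fit) and 0 higher (15.2%), with a median of -0.19. Psmb8, an immunoproteasome subunit, stood at 684 and 655 CPM in cold and 983 and 859 CPM at room temperature (edgeR adjusted p = 0.628). Of 12 tested genes of the class II list 0 passed the edgeR test, with 1 at an unadjusted p under 0.05, 0 called by DESeq2 and a median of -0.058. Without the cells bearing other-type markers the median of the class II list was 0.21. H2-Ab1 stood at 7033 and 6838 CPM in cold and 8236 and 8471 CPM at room temperature (log2 change -0.21, SE 0.09, edgeR adjusted p = 0.527), and without the cells bearing other-type markers its log2 fold change was 0.00. The groups did not overlap for H2-Ab1 in the full set, yet the difference did not pass.

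The factors that define cDC1 were present in both groups. Irf8 stood at 1749 and 1178 CPM in cold and 1005 and 859 CPM at room temperature (log2 change 0.70, SE 0.22, edgeR adjusted p = 0.428). Batf3 stood at 137 and 137 CPM in cold and 115 and 103 CPM at room temperature (log2 change 0.38, SE 0.30, edgeR adjusted p = 0.773). Both had their cold libraries above the others without passing. Over the cDC1 programme 0 of 17 tested genes passed the edgeR test, with 4 at an unadjusted p under 0.05 and 0 called by DESeq2, and the median log2 fold change was 0.045. Over the transcription factors and growth factor receptors of dendritic cells 0 of 21 passed it, with 5 at an unadjusted p under 0.05 and 0 by DESeq2, and the median was 0.089. Without the cells bearing other-type markers the medians of these lists were 0.34 and 0.33, again with 0 calls by edgeR.

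Co-stimulatory genes varied in how many members held a UMI, with Cd83 in 84.8%, Cd86 in 58.9% and Cd40 in 20.5%. Of 10 tested genes of their list 0 passed the edgeR test (4 at an unadjusted p under 0.05, 0 by DESeq2, median -0.0020). Without the cells bearing other-type markers the median of the list was 0.19. Cd86 stood at 108 and 88.3 CPM in cold and 86.0 and 167 CPM at room temperature, with overlap (edgeR adjusted p = 0.886). Cd40 stood at 0 and 36.5 CPM in cold and 49.2 and 162 CPM at room temperature (edgeR adjusted p = 0.527). Cd80, another ligand of CD28, had 0 and 2 UMIs in cold and 18 and 6 at room temperature, and Cd274, which encodes PD-L1, had 0 and 0 UMIs in cold and 10 and 16 at room temperature, too few for the test. Il12b, a subunit of interleukin-12, stood at 50.4 and 0 CPM in cold and 19.7 and 64.1 CPM at room temperature (edgeR adjusted p = 0.839). Tnfsf9, the ligand of 4-1BB on T cells, stood at 7.20 and 12.2 CPM in cold and 106 and 100 CPM at room temperature (log2 change -3.17, SE 0.47, edgeR adjusted p = 0.057). Of the 10 tested genes 2 had both cold libraries above both others (16.3% of all genes) and 3 had them below (24.4%).

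Cirbp and Rbm3 encode RNA-binding proteins induced by mild cooling of cells, and 0 of 3 genes of their list passed the edgeR test (1 at an unadjusted p under 0.05, 0 by DESeq2, median 0.45). Cirbp stood at 122 and 155 CPM in cold and 51.6 and 80.9 CPM at room temperature (log2 change 1.16, SE 0.36, edgeR adjusted p = 0.409). Rbm3 stood at 1216 and 989 CPM in cold and 1013 and 728 CPM at room temperature, with overlap (log2 change 0.40, SE 0.23, edgeR adjusted p = 0.667). Tsc22d3, the glucocorticoid-induced leucine zipper gene, stood at 295 and 207 CPM in cold and 120 and 195 CPM at room temperature (log2 change 0.70, edgeR adjusted p = 0.619). Over the glucocorticoid list 0 of 16 tested genes passed the edgeR test, with 7 at an unadjusted p under 0.05, 2 called by DESeq2 (Cebpd and Txnip), 5 on the higher side without overlap (16.3% of all genes), 2 on the lower (24.4%) and a median of 0.69. Leaving out the cells with other-type markers gave 6 of 12 on the higher side (15.2% of all genes in that fit), 2 on the lower (21.9%) and a median of 0.46.

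**Figure D4:**
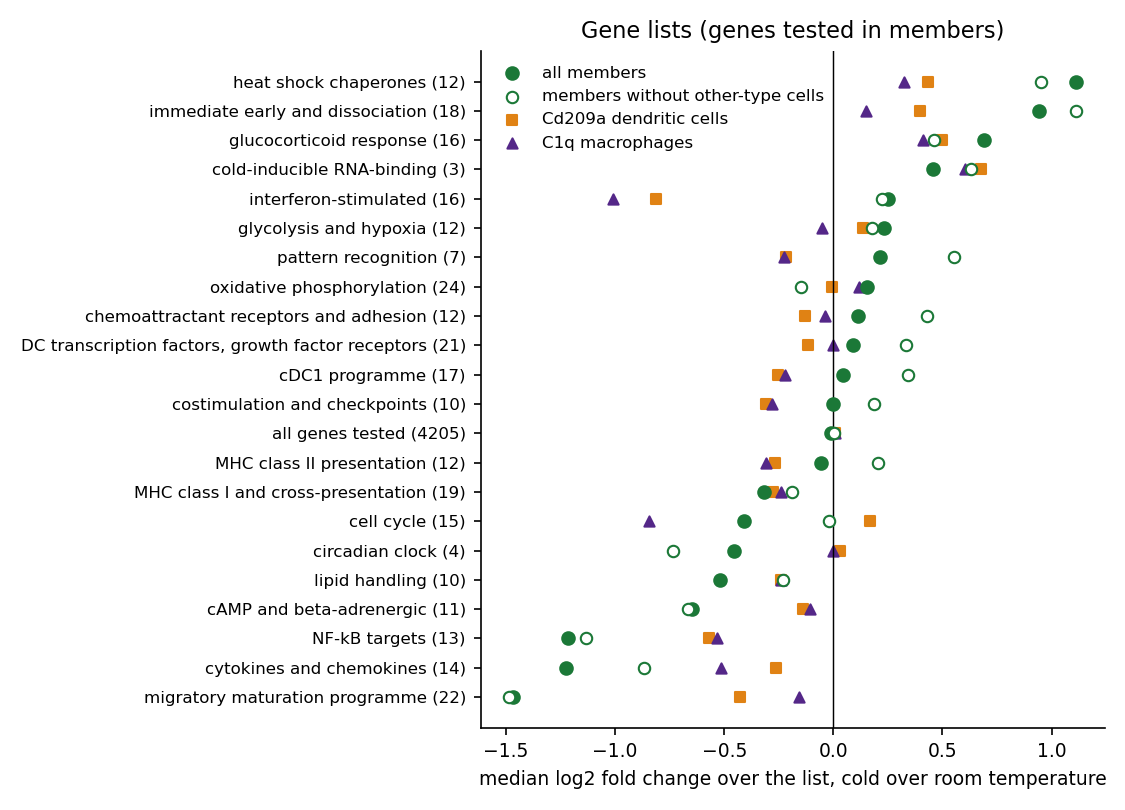
Each row is a gene list with the number of its genes tested in members, and the points give the median log2 fold change of cold over room temperature. Filled and open circles are members with and without cells bearing other-type markers, squares Cd209a dendritic cells and triangles C1q macrophages. Medians in members run from -1.47 for the migratory programme to 1.11 for heat shock chaperones, and the median over all genes tested is -0.0085.

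The remaining lists, cell cycle, interferon-stimulated, lipid handling, oxidative phosphorylation, glycolysis, circadian clock, cAMP, pattern recognition, and adhesion, gave 0 called genes of 109 in the edgeR test, with 12 at an unadjusted p under 0.05 and 0 called by DESeq2. Their medians ran from -0.65 for the cAMP list to 0.25 for the interferon-stimulated list. The interferon-stimulated median was -0.81 in Cd209a dendritic cells and -1.01 in C1q macrophages, and whether these differ from the members was not tested. Interferon genes were uneven within cold, with Isg15 at 0 and 76.1 CPM and Mx1 at 0 and 113 CPM in cold replicates 1 and 2.

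How far the response was shared with other cells was examined in the same libraries. In Cd209a dendritic cells 16 of 6037 genes (0.265%) were called higher in cold and 3 (0.0497%) lower, and in C1q macrophages 3 of 10140 (0.0296%) higher and 13 (0.128%) lower. In Cd209a dendritic cells Hspa1a stood at 2995 and 3095 CPM in cold and 488 and 472 CPM at room temperature (log2 change 2.66, SE 0.10, edgeR quasi-likelihood adjusted p = 2.62e-05). In C1q macrophages it stood at 1837 and 2058 CPM in cold and 797 and 489 CPM at room temperature (log2 change 1.60, SE 0.24, edgeR adjusted p = 0.062). In the kept cells outside these members it stood at 647 and 613 CPM in cold and 338 and 204 CPM at room temperature. The interaction of cold with cell set, which tests the difference itself, was 0.63 (SE 0.24) against Cd209a dendritic cells (edgeR adjusted p = 0.947) and 1.59 (SE 0.24) against C1q macrophages (edgeR adjusted p = 0.011). The rise in Hspa1a was larger in members than in C1q macrophages by that test, and a difference from Cd209a dendritic cells was not shown.

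Atf3, Jun and Fos had their log2 fold changes in the same order. The log2 fold change of Atf3 was 3.04 in members, 0.86 in Cd209a dendritic cells and 0.40 in C1q macrophages, with interactions of 2.04 (edgeR adjusted p = 0.148) and 2.42 (edgeR adjusted p = 0.007). That of Jun was 3.48, 2.23 and 0.97, with interactions of 1.29 (edgeR adjusted p = 0.907) and 2.50 (edgeR adjusted p = 0.007). That of Fos was 2.58, 0.86 and 0.30, with interactions of 1.78 (edgeR adjusted p = 0.367) and 2.27 (edgeR adjusted p = 0.011). Neat1 had 1.48, 0.63 and 0.37, and neither of its interactions passed. Cirbp had 1.16, 0.94 and 0.90, with interactions of 0.15 and 0.16 that did not pass.

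**Figure D5:**
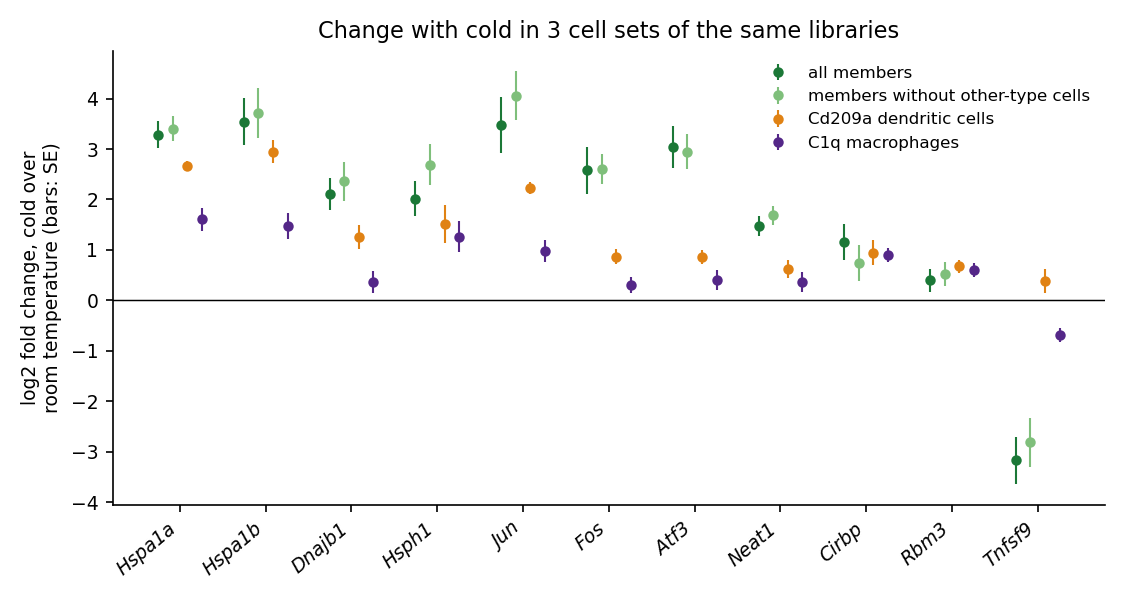
Points give the log2 fold change of cold over room temperature from separate edgeR fits with SE bars, for all members, members without cells bearing other-type markers, Cd209a dendritic cells and C1q macrophages. Hspa1a is at 3.29, 3.40, 2.66 and 1.60, and Tnfsf9 is at -3.17 and -2.81 in members and at 0.39 in Cd209a dendritic cells.

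Across all genes, 4 of 5490 (0.0729%) differed between members and Cd209a dendritic cells in their change with cold, each with the lower value in members. They were Retnla, Cxcl2, Tnfsf9 and Fn1. Tnfsf9 fell short of a call in members alone, while Cd209a dendritic cells held 434 and 685 CPM in cold and 356 and 489 CPM at room temperature (interaction -3.76, SE 0.50, edgeR adjusted p = 0.033). With the cells bearing other-type markers left out, 0 of 4881 genes passed this edgeR test, with 251 at an unadjusted p under 0.05. Against C1q macrophages 18 of 8873 genes (0.203%) passed, 13 with the higher value in members (0.147%) and 5 with the lower (0.0564%), and 56 of 8576 passed without the cells bearing other-type markers. Dropping cold replicate 1, cold replicate 2, room-temperature replicate 1 or room-temperature replicate 2 gave 31, 26, 14 and 20 calls against Cd209a dendritic cells and 110, 83, 107 and 97 against C1q macrophages.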

How the data were processed

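Single-cell 3′ RNA libraries of the stromal vascular fraction were measured, 2 from cold and 2 from room temperature. The authors deposited raw counts of UMIs, 1 value for each gene in each barcode. The file headers name Cell Ranger 3.0.2. Per the submitters' processing notes, builds mm10 and GRCm38 and Seurat (no version) were used. No source used here gives a release of the annotation. There are 31053 genes, and each barcode has at least 500 UMIs.

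Members were found by the stated rule in Python 3.11.15 (numpy 2.4.6, scipy 1.17.1, pandas 2.3.3), and raw counts were summed per set and library. Sums were tested with edgeR 4.0.16 in R 4.3.3 (TMM, filterByExpr, quasi-likelihood F-test, two-sided, Benjamini-Hochberg at 0.05). The alternatives were RLE scaling, DESeq2 1.42.0, a replicate block, no filter on low counts, stricter cell filters, other marker thresholds, doublets left out and each library left out. Doublets were scored against simulated ones (scikit-learn 1.9.0), marking 0.8% per 1000 cells, and kept otherwise. Interactions had the library as block. A subset was to be tested alone only with 20 cells in each library, which neither subset had. The test was checked on simulated counts with known changes.

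Named genes were, for cold, up to 12 called genes each way that averaged 20 CPM or more without overlap between groups, up to 4 called genes per list, and 15 fixed genes; for descriptions, the 15 largest ratios with a pseudocount of 10 CPM and detection in 25% of cells; for interactions, up to 8 each way. Predicted, ribosomal, mitochondrial, Y-linked and rule genes were left out. Other genes, among them Jun, Dnajb1, Hsph1, Nr4a2, Txnip, Zfp36, Nfkbia, Nfkbiz, Il1b and Tmem123, were picked after their values were seen. Members, lists and markers were chosen with earlier results of these data known. Ifi30, Marchf1 and Clec7a of the lists were not analysed here.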

Additional observations from a re-analysis of the deposited data

Results flagged for a closer look

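The change with cold differed between members and Cd209a dendritic cells for 4 genes by the edgeR interaction test (log2, members minus Cd209a dendritic cells). For Retnla the difference was -5.42 (SE 0.35, adjusted p = 0.00011). In Cd209a dendritic cells Retnla stood at 4000 and 3987 CPM in cold and 3440 and 885 CPM at room temperature, and in members 246 of 300 and 100 of 122 UMIs of the room-temperature libraries lay in 1 cell each. For Cxcl2, a neutrophil chemokine, it was -5.05 (SE 0.66, adjusted p = 0.033), where 98 of the 104 UMIs of room-temperature replicate 1 lay in 1 cell. For Tnfsf9 it was -3.76 (SE 0.50, adjusted p = 0.033). For Fn1, which encodes fibronectin, it was -2.80 (SE 0.40, adjusted p = 0.046), with 38 of 87 and 27 of 33 UMIs in 1 cell of each room-temperature library. With the cells bearing other-type markers left out none passed the edgeR test. The difference was then -2.59 for Retnla (adjusted p = 0.124), -3.28 for Cxcl2 (adjusted p = 0.928), -3.38 for Tnfsf9 (adjusted p = 0.124) and -0.24 for Fn1 (adjusted p = 1.0).

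Against C1q macrophages the difference was tested in the same way. It was 7.53 for Lcn2, 5.34 for Gata3 and 3.68 for Socs3, genes whose UMIs in cold lay mainly in 2 epithelial-marker-bearing members. It was 5.0 for Sfn, 4.84 for Krt8 and 5.12 for Iigp1. Of the 172 Krt8 UMIs of cold replicate 2, 166 lay in 1 cell, and the 21 and 20 Sfn UMIs in cold lay in 1 cell of each library. It was 3.21 for Ms4a4c and 2.89 for Ccl4. On the lower side it was -6.07 for Spp1, -4.80 for Ccl5, -4.65 for Cxcl2, -3.78 for Retnla and -3.38 for Pfkfb3. Spp1 stood at 296 CPM in C1q macrophages of cold replicate 1 and at 1.62 to 10.7 CPM in those of the other libraries. Ccl5 in members stood at 0 and 149 CPM in cold and 848 and 2507 CPM at room temperature, beside 0 and 4 Fscn1/Ccr7 cells in cold and 6 and 10 at room temperature. What part these cells play in the differences was not tested.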

How the results depend on the processing

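None of the genes called in members or in the interactions changed sign under an alternative that gave it a value. The count of genes called between cold and room temperature in members, 9, was 33 with DESeq2, 282 without the low-count filter, 29 without doublets, 18 with a Cd209a UMI allowed, and 0 to 190 with 1 library left out. Leaving out doublets took members from room-temperature libraries only. It kept the epithelial-marker-bearing cold members that held most UMIs of Lcn2, Fxyd3, Gata3 and Socs3. With a replicate block the count was 173, where same-numbered libraries deviated together with a correlation of 0.155 over 4205 genes. The labels give no shared origin for a number, and 2 pairs cannot show one. Alternatives added after the data were seen gave 18 without cells bearing Siglech, 5 without cells bearing other-type markers and 12 in Xcr1/Clec9a cells alone, with or without the latter. The count against Cd209a dendritic cells, 4, was 50 without the filter, 14 to 31 with a library left out and 0 without the cells bearing other-type markers. The count against C1q macrophages, 18, was 111 without the filter, 83 to 110 with a library left out and 56 without those cells. A marker sum of at least 3 moved the difference in the Xcr1/Clec9a share from 8.05 to 19.7 percentage points, and thinning moved it to -24.3 and that of the Fscn1/Ccr7 share to 38.2. With a library left out they ran from 0.554 to 15.5 and from -21.9 to -5.85, and those in the shares of kept and of Ptprc-positive cells from -0.654 to -0.104 and from -0.952 to -0.062. The causes were not tested. A group reduced to 1 library takes its spread from the other group. The alternatives planned for the 2 subsets were not run, since the subsets were not tested as planned. With 11 cells in cold replicate 1, genes with few UMIs could not be tested.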
